A study of Mus musculus with 4 samples.

Results

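The syndecans and glypicans are the main families of cell-surface heparan sulfate proteoglycans, and 9 of their genes were followed here among 22180 genes measured on 4 arrays. The members were Sdc1, Sdc2, Sdc3 and Sdc4, and Gpc1, Gpc2, Gpc3, Gpc4 and Gpc6. The families were chosen by symbol with earlier results of these arrays known, among them the value of Sdc3 in the shCDK8 comparison, so the differences below are descriptions. Each gene was read from the probe set, annotated to that symbol alone, that was selected on the highest mean over the 4 arrays.

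Syndecans span the membrane and carry heparan sulfate chains on their ectodomain, while glypicans hang from the membrane by a lipid anchor. The chains bind growth factors, morphogens, chemokines and matrix proteins and bring them to their receptors. Proteases can release syndecan ectodomains, and the lipase Notum can release glypicans. In the gut, syndecan-1 is the typical syndecan of epithelial cells, and glypicans are known as modulators of Wnt, Hedgehog and growth factor signals.

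All RNA came from cultures of CT26, a colon carcinoma line of the mouse, hybridised to Affymetrix Mouse Gene 2.0 ST arrays. A first culture received DMSO, the solvent, for 24 h, and a second received 5 µM Senexin B, an inhibitor of the Mediator kinases CDK8 and CDK19, for 24 h. Another culture was the line CT26-pLKO.1, named for a lentiviral hairpin vector, and the last was CT26-shCDK8, named for a hairpin against CDK8; no treatment is given for these lines, nor whether they were clones or pools, nor how many hairpins were used. Each group had 1 array, so there was no replicate error and no test, and a value is a log2 expression value, a difference a difference of log2 values between 2 arrays.

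The arrays were alike in their distributions, with medians between 5.99 and 6.04 on the log2 scale and Pearson correlations between arrays across probe sets from 0.982 to 0.990. Cdk8 stood at 9.07 on the shCDK8 array and between 10.58 and 10.79 on the other 3. A gene was taken as expressed when its highest value was at or above 5.98 on the log2 scale, the 40th percentile over genes and arrays, which held for 14272 of the 22180 genes. Of 8 epithelial markers 5 were expressed, with Krt20 lowest on the shCDK8 array, at 6.59, and between 8.03 and 8.72 on the others, and Epcam, a defining epithelial gene, below the limit at 4.38 to 4.64 on every array. None of 4 measured leukocyte markers was expressed, and all 5 fibroblast markers were, with Col1a2 at 10.57 to 11.01. Of 4 endothelial markers 3 counted as expressed, Pecam1, Cdh5 and Kdr, but their highest values were only 6.14 to 6.16, near the limit. The summed log2 values of the fibroblast markers ran from 44.70 on the DMSO array to 48.89 on the Senexin B array, with 45.47 for pLKO.1 and 44.84 for shCDK8; those of the epithelial markers ran from 49.33 for shCDK8 to 51.81 for Senexin B. The high fibroblast sum with Senexin B came mainly from Dcn, at 2.29 above DMSO, and Pdgfra, at 1.24, while Col1a1, Col1a2 and Thy1 were 0.21 to 0.23 above it. In shCDK8 Krt20 was at -1.44 against pLKO.1, while Cdx2 was at 0.41, Cdh1 at 0.24 and the median of the 8 epithelial markers at 0.0021. Whether these markers have a part in the differences below was not tested.

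Of the 9 members 7 were expressed: the 4 syndecans, Gpc1, Gpc2 and Gpc6. Gpc3 and Gpc4 stayed below the limit on all 4 arrays, where values have little meaning. The family was mostly level across the arrays, and 2 members stood out. Sdc3 was 3.11-fold higher in shCDK8 than in pLKO.1, and Gpc1 was 1.61-fold lower in the same comparison and 1.33-fold higher with Senexin B than with DMSO.

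**Figure D1:**
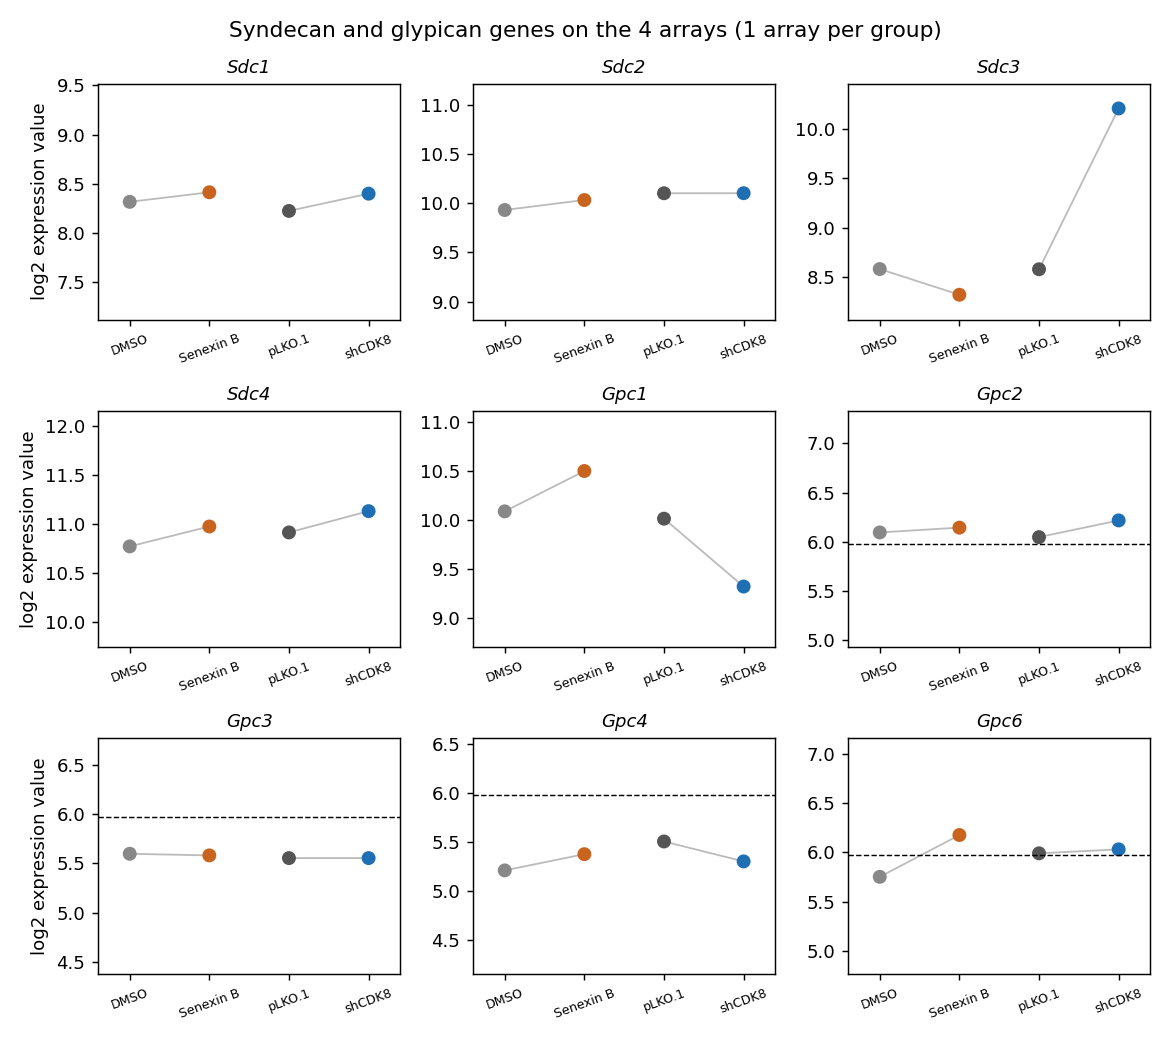
Log2 expression value (vertical axis, the same span of 2.4 in each panel) of the 9 members on the DMSO, Senexin B, pLKO.1 and shCDK8 arrays; each point is 1 array, lines join the arrays of a comparison, and the dashed line is the expression limit of 5.98. Sdc3 is high on the shCDK8 array alone (10.21), Gpc1 is lowest there (9.32), and Gpc3 and Gpc4 lie under the limit throughout.

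Sdc3, or N-syndecan, has the longest ectodomain of the mammalian syndecans and is best known from neurons, where it binds pleiotrophin. Its log2 value was 8.58 with DMSO, 8.32 with Senexin B, 8.58 in pLKO.1 and 10.21 in shCDK8. The 3 arrays without the hairpin were within 0.26 of each other, and the shCDK8 array lay far above them. The difference between shCDK8 and pLKO.1 was 1.64, and that between shCDK8 and DMSO was 1.63. The controls differed by 0.0021 in Sdc3, pLKO.1 being the lower. In shCDK8 minus pLKO.1 Sdc3 was the gene in place 4 from the highest of all 14272 expressed genes, and 0.0771% of them lay at least as far from 0. With Senexin B it lay on the other side of 0, at -0.26 against DMSO and -0.26 against pLKO.1, a distance that 27.5% of expressed genes reached against DMSO. On these bulk arrays more Sdc3 RNA in each cell and more cells that make it cannot be told apart.

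The region around the Sdc3 start site is shown because Sdc3 was the member with the largest difference, beside those of Sdc1 and Sdc4, which were nearly level. RefSeq promoter sequences for GRCm38.p6, from 250 bases before to 50 bases after a gene's start, held 6 of the 9 members: Sdc1, Sdc3, Sdc4, Gpc2, Gpc3 and Gpc4. Capitals mark GC boxes, GGGCGG on either strand, a motif bound by Sp1-type factors; each sequence is 300 bases, 5′ to 3′ on the gene's strand. Sdc3 lies at chr4:130792287-130792586 on the plus strand, Sdc1 at chr12:8771146-8771445 on the plus strand and Sdc4 at chr2:164443139-164443438 on the minus strand.
Sdc3: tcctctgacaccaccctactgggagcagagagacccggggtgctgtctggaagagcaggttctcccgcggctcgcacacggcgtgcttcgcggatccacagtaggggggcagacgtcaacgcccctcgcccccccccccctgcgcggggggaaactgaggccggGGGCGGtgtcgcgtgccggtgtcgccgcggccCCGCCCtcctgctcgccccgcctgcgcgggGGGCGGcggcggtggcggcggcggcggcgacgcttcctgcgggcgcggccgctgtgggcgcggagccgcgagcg
Sdc1: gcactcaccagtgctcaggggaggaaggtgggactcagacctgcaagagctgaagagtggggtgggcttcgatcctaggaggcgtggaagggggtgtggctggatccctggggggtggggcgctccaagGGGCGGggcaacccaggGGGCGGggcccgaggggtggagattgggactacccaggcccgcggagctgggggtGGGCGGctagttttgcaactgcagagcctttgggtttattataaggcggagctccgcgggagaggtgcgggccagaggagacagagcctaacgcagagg
Sdc4: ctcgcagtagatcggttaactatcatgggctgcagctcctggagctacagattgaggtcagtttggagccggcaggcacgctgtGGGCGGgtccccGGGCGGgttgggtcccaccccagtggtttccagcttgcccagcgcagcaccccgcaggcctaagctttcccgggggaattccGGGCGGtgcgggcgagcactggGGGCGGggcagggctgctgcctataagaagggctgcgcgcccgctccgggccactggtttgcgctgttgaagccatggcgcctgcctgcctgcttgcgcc

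The Sdc3 window held 3 GC boxes, that of Sdc1 3 and that of Sdc4 4, and each of the other 3 matched members held at least 1; of 32851 RefSeq promoter windows of this length 35.7% had the motif. The Sdc3 window was 77.7% G and C with 44 CpG dinucleotides, against 66.3% and 14 for Sdc1 and 67.7% and 22 for Sdc4, and 98.1% of all windows had a G and C share no higher than that of Sdc3. The TATA box TATAAA, the AP-1 site TGANTCA and the E box CACGTG, searched on both strands, had no match in any of the 6 windows and occurred in 13.6%, 7.81% and 7.15% of all windows. The GC boxes did not overlap each other, and a match is only a match of letters.

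Sdc1, CD138, is the syndecan of epithelia and plasma cells. Its log2 value was 8.32 with DMSO, 8.41 with Senexin B, 8.22 in pLKO.1 and 8.40 in shCDK8. The difference was 0.097 for Senexin B and 0.18 for shCDK8, and pLKO.1 was 0.092 below DMSO. The whole range over 4 arrays was 0.19. A further Sdc1 probe set, which the choice by mean passed over, lay near the limit at 5.97 to 6.06 and gave differences of 0.026 and 0.029.

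Sdc2, or fibroglycan, is the syndecan most often named in mesenchymal cells. Its log2 value was 9.93 with DMSO, 10.03 with Senexin B, 10.10 in pLKO.1 and 10.10 in shCDK8. No member that was expressed differed less between shCDK8 and pLKO.1, at 0.0004. The difference for Senexin B was 0.10 against DMSO and -0.069 against pLKO.1, so its side depended on the control array, and the controls themselves differed by 0.17.

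Sdc4, a component of focal adhesions that binds protein kinase C alpha, stood at a log2 value of 10.77 with DMSO, 10.97 with Senexin B, 10.91 in pLKO.1 and 11.13 in shCDK8. It was above its control by 0.20 with Senexin B and by 0.22 in shCDK8. The pLKO.1 array was 0.14 above DMSO, so Senexin B against pLKO.1 gave 0.060 and shCDK8 against DMSO 0.36. The order of the arrays was DMSO lowest and shCDK8 highest.

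Gpc1, glypican-1, is known to be raised in several human carcinomas and acts as a co-receptor for heparin-binding growth factors. Its log2 value was 10.09 with DMSO, 10.50 with Senexin B, 10.02 in pLKO.1 and 9.32 in shCDK8. The controls lay close together, Senexin B above them and shCDK8 below them. The difference was 0.41 for Senexin B minus DMSO, a distance that 10.5% of expressed genes reached, and -0.69 for shCDK8 minus pLKO.1, which 2.12% reached. Set against the other control array these became 0.48 and -0.76, and pLKO.1 was 0.074 below DMSO. The dimmer of the 2 Gpc1 probe sets, not used for the gene, ran the same way, with 8.12, 8.44, 8.17 and 7.65 in the order DMSO, Senexin B, pLKO.1 and shCDK8, and differences of 0.32 and -0.52.

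Gpc6, glypican-6, a glypican of mesenchymal tissue, lay at the expression limit. Its log2 value was 5.75 with DMSO, 6.18 with Senexin B, 5.99 in pLKO.1 and 6.03 in shCDK8. The DMSO array alone was below the limit. The difference for Senexin B was 0.43 against DMSO, the largest positive one among the members there, but 0.19 against pLKO.1 and 0.20 once the DMSO value was set to the limit. In shCDK8 it was 0.040.

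Gpc2, or cerebroglycan, known from the developing nervous system, was barely above the limit, with log2 values of 6.09 with DMSO, 6.14 with Senexin B, 6.05 in pLKO.1 and 6.22 in shCDK8. Its differences were 0.049 for Senexin B and 0.17 for shCDK8. A probe set annotated to both Gpc2 and its neighbour Gal3st4 was left out, and lay at 5.02 to 5.42.

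Gpc3, a glypican best known as an oncofetal antigen of liver cancer and as the gene of a human overgrowth syndrome, was at 5.60 with DMSO, 5.58 with Senexin B, 5.55 in pLKO.1 and 5.55 in shCDK8. Gpc4 was at 5.21, 5.38, 5.51 and 5.30 in the same order. Gpc3 varied by 0.044 and Gpc4 by 0.29 over the 4 arrays, all of it under the limit. Gpc5, the remaining mouse glypican, which is not a member, was also under it, at 5.59 to 5.65.

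In the comparison of Senexin B with DMSO, which asks what inhibition of the Mediator kinases does to the transcripts, 0 of the 9 members were 2-fold apart in either direction. Over the expressed genes 0.687% passed 2-fold upwards and 0.252% downwards. At 1.5-fold the count of members was still 0, beside 2.35% of expressed genes upwards and 1.65% downwards. Of the 9 members 7 lay above 0, beside 6396 of 14272 expressed genes. The median difference was 0.10, beside -0.028 over all expressed genes. All 9 were inside the central 95% of expressed genes, from -0.50 to 0.57.

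In the comparison of shCDK8 with pLKO.1, which asks how the line with the CDK8 hairpin differs from the vector line, Sdc3 was the only member 2-fold higher, 1 of 9, beside 0.196% of expressed genes. No member was 2-fold lower, beside 0.322%. At 1.5-fold Sdc3 passed upwards, beside 1.67% of expressed genes, and Gpc1 downwards, beside 1.85%. Since the members were picked with the value of Sdc3 known, nothing is read from these shares. The median of the 9 was 0.040, beside 0.0038 for all expressed genes. The 4 syndecans were all above 0 with a median of 0.20, Sdc2 by only 0.0004, beside 7254 of 14272 expressed genes above 0. The other 7 members lay between -0.20 and 0.22, inside the central 95% of expressed genes, from -0.52 to 0.52.

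Between the controls, pLKO.1 minus DMSO, 0 of 9 members were 1.5-fold apart, beside 0.603% of expressed genes upwards and 0.434% downwards. At 2-fold these shares of genes were 0.0841% and 0.0140%. The largest differences among members were those of Gpc4, at 0.29 and under the limit, and Gpc6, at 0.24. The SD over expressed genes was 0.19 for this difference, 0.29 for Senexin B and 0.26 for shCDK8.

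**Figure D2:**
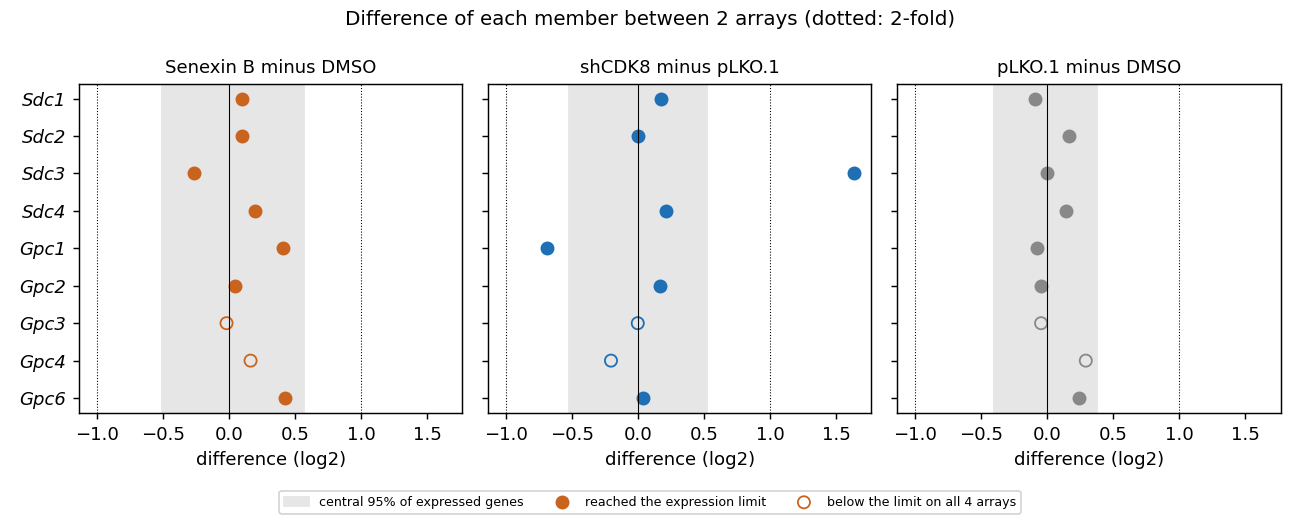
Difference of log2 values (horizontal axis) of each member between 2 arrays, for Senexin B minus DMSO, shCDK8 minus pLKO.1 and pLKO.1 minus DMSO; filled points are members that reached the expression limit, open points those below it, the grey band the central 95% of expressed genes, and dotted lines 2-fold. Sdc3 (1.64) and Gpc1 (-0.69) lie outside the band for shCDK8, and no member does in the other panels.

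Sdc3 and Gpc1 lay on opposite sides of 0 in the inhibitor and hairpin comparisons, which share no array. Sdc3 was at -0.26 with Senexin B and 1.64 in shCDK8, and Gpc1 at 0.41 and -0.69. With Senexin B, 27.5% of expressed genes lay at least as far from 0 as Sdc3, and 10.5% as far as Gpc1. The share of all expressed genes on opposite sides was not counted, so nothing is read from the sides of the members. Gpc4, under the limit, was also on opposite sides, at 0.17 and -0.20, and Gpc3, under the limit too, was below 0 in both, at -0.016 and -0.0003. Sdc1, Sdc4, Gpc2 and Gpc6 were above 0 in both, by at most 0.43, and Sdc2 was at 0.10 and 0.0004.

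The pattern of Sdc3 over the 4 arrays was compared with those of other expressed genes. The measure was the Euclidean distance of the values after each gene was centred on its own mean. Predicted or unnamed loci and microRNA, small nucleolar RNA, olfactory and vomeronasal receptor genes were left out of the search. The nearest was Fst, the gene of the activin-binding protein follistatin, at a distance of 0.20, with log2 values of 8.48 on the DMSO array, 8.17 with Senexin B, 8.57 in pLKO.1 and 9.93 in shCDK8. Next came Prrg4, a transmembrane Gla protein gene, at 0.38, the lymphocyte receptor gene Tigit at 0.46, Smad9, a transducer of BMP signals, at 0.54, and Sgms2, a sphingomyelin synthase gene, at 0.54. As with Sdc3, each of the 5 was highest in shCDK8, by 0.96 to 1.37 over pLKO.1, and lowest with Senexin B, by -0.31 to -0.72 against DMSO. These genes were picked for nearness to Sdc3 over the same 4 values, so the shared order comes from the choice. The likeness rests on 4 arrays.

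**Figure D3:**
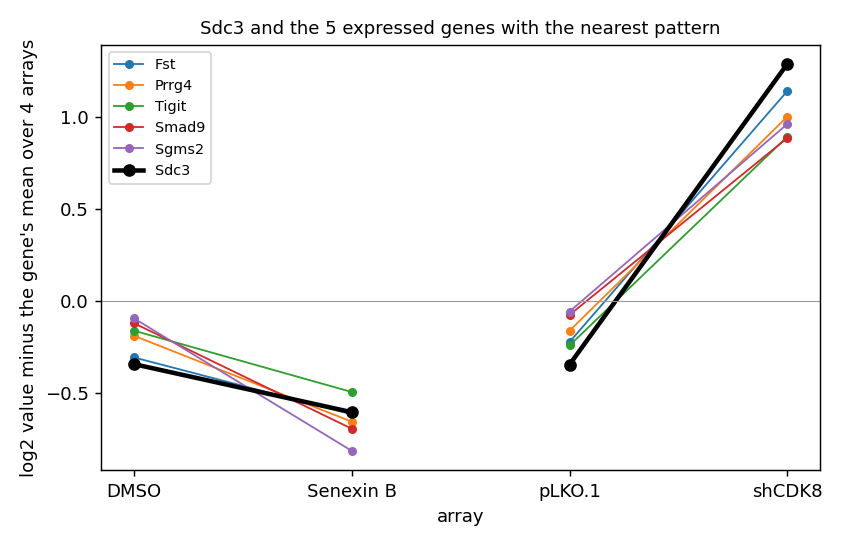
Log2 value minus the gene's own mean over the 4 arrays (vertical axis) for Sdc3 (black) and the 5 expressed genes nearest to it, by array (horizontal axis); each point is 1 array and lines join the arrays of a comparison. The 5 genes were picked for nearness on these same arrays, among the genes kept for the search. By that choice all 6 genes are lowest on the Senexin B array and highest on the shCDK8 array.

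The members are spread over the genome, and only Gpc3 and Gpc4, next to each other on chromosome X, adjoin among them; Gpc6 has Gpc5 as its neighbour on chromosome 14. In the RefSeq order of protein-coding genes of GRCm38.p6, measured genes close to Sdc3 on chromosome 4 include Nkain1, Laptm5 and Matn1. Nkain1, at log2 values of 10.31 to 10.68, differed by 0.027 between shCDK8 and pLKO.1. Laptm5 was below the limit with 0.16. Matn1 was at 0.46, between 5.38 in pLKO.1 and 5.83 in shCDK8, both under the limit, which it reached with Senexin B alone. Of the genes beside Gpc1 on chromosome 1, Cops9, Otos and Dusp28 were expressed, and they differed by 0.018 to 0.18 there. Next to Sdc2 on chromosome 15, Sema5a, a semaphorin gene, was at 0.75 with Senexin B and -0.82 in shCDK8, while Sdc2 was level.

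Related genes were read from 11 lists of 119 genes, of which 115 were measured and 97 expressed. The lists held genes that act on the chains or core proteins, partners of syndecans, other proteoglycans, heparin-binding ligands and receptors of these ligands. Enzymes that start the chain on the core protein were nearly level: of 6 expressed genes of linker synthesis 0 were 1.5-fold apart in either comparison, with medians of 0.058 for Senexin B and -0.062 for shCDK8. The largest difference was that of Pxylp1, a phosphatase of the linker, at 0.37 and 0.27. Its controls differed by 0.31, and against the other control array it was at 0.068 and 0.58. The 4 expressed polymerization genes had medians of -0.040 and 0.10, with Ext1 at 0.11 and -0.16 and Extl3 at -0.066 and 0.33.

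Of 14 expressed sulfation and epimerization genes, 0 were 1.5-fold apart with Senexin B (median -0.028) and 2 were in shCDK8 (median -0.0028). Over all 14272 expressed genes these counts were 571 and 502. Ndst4, an N-deacetylase and N-sulfotransferase, was at -1.08 against pLKO.1 but at -0.069 against DMSO, since the controls differed by 1.01. Papss2, which makes the sulfate donor, was 0.85 higher in shCDK8 and reached the limit on that array alone. Ndst3 was at -0.13 with Senexin B and -0.55 in shCDK8. Hs3st1, which reached the limit with Senexin B alone, was at 0.54 and -0.013.

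Among 4 expressed genes that trim chains or release glypicans outside the cell, Hpse, the heparanase gene, was 0.89 higher with Senexin B and Sulf2, a 6-O-endosulfatase gene, 0.70 higher, at 0.84 and 0.53 against pLKO.1. Both were nearly level in shCDK8, at 0.13 and 0.16. The medians of the list were 0.53 and 0.13. Notum, at 0.36 with Senexin B and -0.50 in shCDK8, lay at 5.96 to 6.48, near the limit, and against the other control array it was at 0.020 and -0.16. Of 7 expressed lysosomal enzymes of heparan sulfate breakdown, with medians of 0.15 and 0.072, Naglu was at 0.79 and 0.32 and Idua at 0.33 and 0.68.

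Proteases reported to shed syndecans went both ways, with medians of -0.15 and -0.034 over 7 expressed genes. At 2-fold, Mmp2 was the single gene higher with Senexin B, at 2.08, from a DMSO value under the limit, beside 0.687% of expressed genes. Mmp3 and Mmp9 were the genes 2-fold lower in shCDK8, beside 0.322% of expressed genes. Mmp14, with log2 values of 8.81 to 9.78, was at 0.64 with Senexin B and 0.48 in shCDK8, and its controls differed by 0.49. In shCDK8 Mmp3 was at -2.59 and Mmp9 at -1.06 against pLKO.1, and at -1.89 and -1.27 against DMSO. With Senexin B, Mmp3 and Mmp9 were at -0.74 and -0.59 against DMSO, and at -1.44 and -0.38 against pLKO.1. In pLKO.1 minus DMSO these genes were at 0.70 and -0.21. Any relation of protease RNA to Sdc3 was not tested. The general sheddases Adam10 and Adam17 were at 0.028 and -0.15 with Senexin B, and at 0.22 and 0.0025 in shCDK8. Of 9 expressed cytoplasmic partners of syndecans, with medians of 0.11 and -0.14, the scaffold gene Cask was at 0.99 with Senexin B and -0.61 in shCDK8, on the opposite sides to Sdc3. Cask was under the limit on the shCDK8 array, at 5.78, and was at -0.31 in pLKO.1 minus DMSO. Sdcbp, the gene of syntenin, was at -0.10 and 0.13.

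Other core proteins that can carry heparan sulfate were not 2-fold apart in either comparison. Over all expressed genes 0.687% passed 2-fold upwards and 0.252% downwards with Senexin B, and 0.196% and 0.322% in shCDK8. The 8 expressed core protein genes had medians of -0.14 and -0.17, with Senexin B given first. Tgfbr3 (betaglycan) was at 0.63 and 0.12 and Nrp1 (neuropilin-1) at -0.63 and -0.45. In the same order, Col18a1 was at 0.45 and -0.24 and Spock1 at -0.40 and 0.23. In pLKO.1 minus DMSO these 2 genes were at 0.54 and -0.40. The matrix cores Hspg2 (perlecan) at -0.31 and -0.25 and Agrn (agrin) at 0.010 and -0.26 were chosen for naming after their values were seen.

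**Figure D4:**
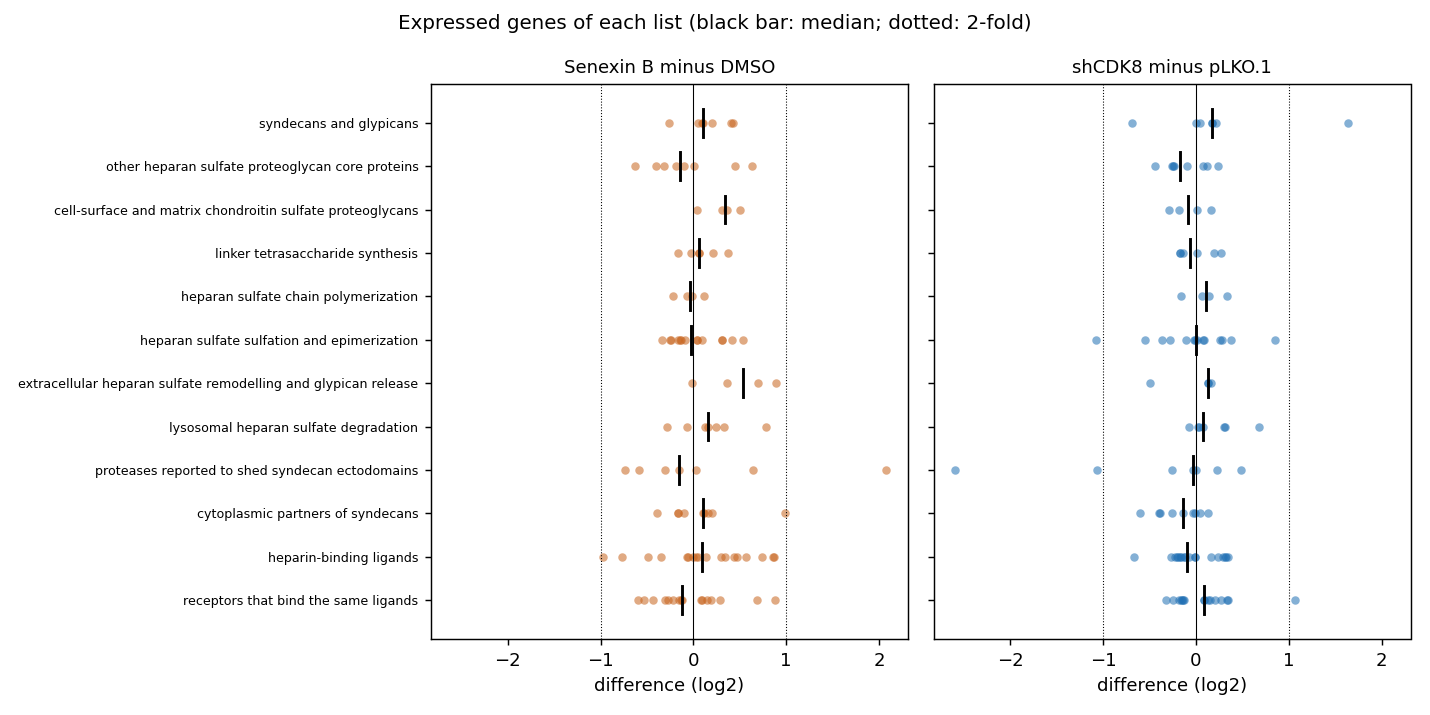
Difference of log2 values (horizontal axis) of the expressed genes among the members and in 11 lists of related genes, for Senexin B minus DMSO and shCDK8 minus pLKO.1; each point is 1 gene, black bars are medians and dotted lines 2-fold. The member medians shown, over the 7 expressed members, are 0.10 and 0.17, and Sdc3 at 1.64 is the highest point of the shCDK8 panel.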

How the data were processed

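The authors deposited a log2 expression value for every probe set on each array, made with RMA and Affymetrix Expression Console per the submitters' processing notes. Versions and joint normalization of the arrays are details not given in the sources used here. The RMA method equalizes the arrays' distributions, so a shift common to all genes is removed, and differences near background are compressed. Depth does not apply to arrays; their number limits the precision, with 1 per group.

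Of 41345 probe sets 23521 carried 1 gene symbol in the platform annotation, 1814 several and 16010 none; those with 1 symbol stood for 22180 genes. Genes with several probe sets were read from the one with the highest mean. Of the 23521, 23477 matched the RefSeq table of GRCm38.p6 by symbol or gene ID. The array design's build is likewise not given, so that table served for gene order and its own promoter sequences only. Differences of log2 values were taken between arrays, and 2-fold means at least 1 on that scale. Members, lists and rules were chosen with earlier results of these data known. The naming rule took all members, up to 4 expressed genes of each list with the largest difference in either comparison, and list genes 2-fold apart. It also took Cdk8 and, for each member 2-fold apart, the 5 nearest of the genes kept for that search. Not every list gene that the rule took is given here, and any further gene was picked with its values in view. The computation was tested on simulated data with known fold changes. Python 3.11.15, pandas 2.3.3, numpy 2.4.6 and statsmodels 0.14.6 were used. Alternatives were quantile normalization applied again, subtraction of a lowess fit (span 0.3), centring, averaging over a gene's probe sets, values raised to the limit, filters at the 40th and 60th percentile, 1.5-fold and 3-fold thresholds and the other control array; applying the first 5 to the controls was chosen after seeing the data.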

Additional observations from a re-analysis of the deposited data

How the results depend on the processing

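No test was possible with 1 array per group, and no replicate could be left out. No paired analysis was possible because each group had 1 array. Of 153 recomputed differences of single members 140 moved by less than 0.1 on the log2 scale and 13 moved by more, 8 of them with the other control array and 5 with values raised to the expression limit. Signs changed in 10, for reported differences of at most 0.20. Sdc3 in shCDK8 stayed between 1.63 and 1.65, Gpc1 between -0.76 and -0.60, and Gpc1 with Senexin B between 0.37 and 0.49. Gpc6 with Senexin B ranged from 0.19 to 0.45. The count of members 2-fold apart stayed at 0 for Senexin B under every alternative, the 1.5-fold threshold included. For shCDK8 it stayed at 1, also at 3-fold, and was 2 at 1.5-fold, where a lower threshold admits Gpc1. The median of the members in shCDK8 went from 0.040 to 0.17 over the 7 members that pass the 40th percentile filter and 0.18 over the 5 that pass the 60th, since fewer genes enter, and to 0.12 with the other control array. After the lowess fit it was 0.025. The Senexin B median of 0.10 was 0.060 with the other control array and 0.17 after the lowess fit. Signal over background was not used here, so Gpc2, Gpc3, Gpc4 and Gpc6 are limited by their low values.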

Other observations

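Ligands that bind heparan sulfate chains were also read. Of 18 expressed ligand genes 5 were at least 1.5-fold apart with Senexin B and 1 in shCDK8, with medians of 0.091 and -0.097; the difference between these counts was not tested. Of the 14272 expressed genes 571 and 502 were 1.5-fold apart in these comparisons. Hbegf, a ligand of the EGF receptor, was at -0.97 with Senexin B, Fgf10 at 0.86, Vegfa at 0.86 and Tnc, the gene of the matrix protein tenascin-C, at -0.77. In shCDK8 the same genes were at -0.27, -0.17, 0.34 and -0.67. Against pLKO.1, Senexin B gave -1.15 for Hbegf, 0.90 for Fgf10, 0.78 for Vegfa and -0.85 for Tnc. Tnc was under the limit on the Senexin B array, at 5.905.

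Of 16 expressed receptor genes, with medians of -0.13 for Senexin B and 0.091 for shCDK8, the VEGF receptor gene Flt1 was the single one 2-fold apart, at 1.07 in shCDK8 and 0.94 when set against DMSO. Over all expressed genes 0.196% were 2-fold higher in shCDK8 than in pLKO.1. Fgfr1 was 0.88 higher with Senexin B, Itgb5 0.69 higher and Itgav at -0.59. The 4 expressed chondroitin sulfate proteoglycan genes had medians of 0.34 and -0.085, with Vcan, the versican gene, at 0.51 and 0.015 and Cspg4 at 0.36 and -0.29; Cspg4 differed by 0.31 between the controls.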
